A study of Homo sapiens with 12 samples.

Results

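Kinesins are motor proteins that walk along microtubules by hydrolysing ATP, and the genes described here are those whose symbols name a kinesin heavy chain (*KIF*), a kinesin of the C-terminal motor type (*KIFC*) or a kinesin light chain (*KLC*). By that rule 32 of the 10976 genes with a value were members, of which 12 are mitotic kinesins, 8 are axonal transport kinesins, 3 are light chains, 3 are kinesins of the cilium or of kinesin-2, and 6 are others. The rule used gene symbols alone and no measured value. In dividing progenitors the mitotic kinesins build the spindle, move chromosomes and complete cytokinesis, and they are made mostly in the G2 and M phases of the cell cycle. In neurons, which have left the cell cycle, kinesins of the kinesin-1 and kinesin-3 families carry vesicles and organelles along the axon towards its tip. A tissue that turns from dividing progenitors to neurons is therefore known to change its set of kinesins.

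The values came from human cerebral organoids (COs), balls of brain-like tissue grown from embryonic stem cells by an unguided protocol, in which no added factor directs the brain region formed. All COs came from the H1 embryonic stem cell line. They were either unedited H1 (WT) or 1 of 2 clones of H1 in which *c-JUN*, the gene of an AP-1 transcription factor, had been targeted with CRISPR-Cas9 (KO#2 and KO#10), and they were collected at day 12 or day 24. Each of these 6 groups of line and day had 2 libraries, 12 in all, and several COs were pooled for each. Each KO line is 1 clone, and nothing in the labels says whether replicates came from separate cultures, so that *p*-values measure the spread between these libraries only. The question addressed was how the kinesin genes differed between KO and WT at each day, and between days within each genotype.

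*JUN* had values of 4 and 8 in the WT libraries of day 12 and 13 and 15 in those of day 24. In the libraries labelled KO it had values of 13 to 19 at day 12 and 29 to 39 at day 24. The transcript was thus higher, not lower, in libraries labelled KO, and it gives no check of the labels. In the paper, c-JUN protein was absent from the KO cell lines by western blot. Its PCR test of RNA (RT-qPCR) found no *c-JUN* expression in KO COs, unlike the values here. WT and KO below stand for libraries so labelled.

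The deposited values are normalized, rounded scores with the same median (17) and the same highest value in every library. Their totals of 473637 to 483149 are set by the normalization, and the sequencing depth is unknown. They are not known to be scaled by gene length, so that levels are compared here between libraries and not between genes. A gene was tested if its value was at least 10 in at least 2 libraries of the fit, and it was called at an adjusted *p* under 0.05 (limma with Benjamini-Hochberg adjustment over all genes tested) and a log2 fold change of at least 1 in size on the log2(value + 1) scale, which understates the change of low genes.

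Replicate 1 of KO#10 at day 24 stood apart from the other KO libraries of that day. Its correlation with replicate 2 over all genes (*r* = 0.909) was the lowest of the 6 replicate pairs, the highest being 0.957. The summed value of 11 neuronal markers (of 12 listed) was 448 in it against 1435 to 2073 in the other KO libraries of day 24 and 187 to 347 in the WT libraries of day 24. Markers of hepatic and yolk sac secretory cells (8 genes) summed to 1297 in this library, against 33 to 105 in the other KO libraries and 7174 to 7362 in WT. Mesenchymal markers (7 genes in the table of 8 listed) summed to 2909 in it, against 141 to 173 in the other KO libraries and 2073 to 2439 in WT. This library was singled out after its values were seen. Calls of kinesins at day 24 are given with and without it.

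The labels name embryonic stem cells as the cell type, and *POU5F1* and the other 7 pluripotency markers summed to 897 to 1128 in WT and 555 to 598 in KO at day 12, and to 501 to 960 in WT and 59 to 85 in KO at day 24. Of the neuronal markers, *ELAVL4* was at 0 in both WT libraries of day 12. *APOB*, *RBP4*, *SERPINA1* and *PRRX1* were among the secretory and mesenchymal markers at 0 in some groups of day 12. The 8 epithelial markers summed to 369 to 390 in WT and 203 to 332 in KO at day 12, and to 725 to 962 in WT and 45 to 266 in KO at day 24. Markers of neural progenitors (8 genes) summed to 563 to 700 in WT and 850 to 1054 in KO at day 12, and to 544 to 718 and 985 to 1114 at day 24. *VIM* had the highest value of these 8 genes in every library of day 24. Its values were 316 and 354 for WT, 666 in both libraries of KO#2, and 748 and 550 for KO#10. Of the 8 genes, 4 had every KO library of day 24 above both WT libraries, as did 22.2% of all genes tested. KO#10 replicate 1 lay below the other 3 KO libraries in 6 of the 8, all but *VIM* and *FABP7*, which its sum hides. The share of all genes for which it did so was not counted. In bulk samples such as these fewer cells of a type and less RNA per cell cannot be told apart. The part of these markers in the results below was not tested.

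Most kinesins of axonal transport had higher values in 3 of the 4 libraries labelled KO than in WT at day 24, with values near WT in the fourth, KO#10 replicate 1. None was called at day 24 when all libraries were kept, and 5 of 8 were called higher without that library. At day 12 none was called.

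*KIF5C*, a neuronal heavy chain of kinesin-1 (chromosome 2, 148875227 to 149026759), had normalized values of 31 and 30 for WT, 27 and 28 for KO#2, and 25 and 27 for KO#10 at day 12. At day 24 its values were 26 and 22 for WT, 70 and 74 for KO#2, and 19 and 52 for KO#10. All KO libraries of day 24 but KO#10 replicate 1 lay above both WT libraries, and that library lay below them.

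*KIF5A*, the other heavy chain of kinesin-1 that is largely restricted to neurons (chromosome 12, 57546026 to 57586633), had values of 8 and 6 for WT, 3 and 7 for KO#2, and 3 and 7 for KO#10 at day 12. At day 24 it had 9 and 6 for WT, 23 and 22 for KO#2, and 8 and 20 for KO#10. The same 3 KO libraries were high, and KO#10 replicate 1 lay between the WT libraries.

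*KIF1A*, the kinesin-3 motor of synaptic vesicle precursors (chromosome 2, 240713761 to 240824293), had values of 34 and 33 for WT, 31 and 29 for KO#2, and 28 and 23 for KO#10 at day 12. Its values at day 24 were 22 and 28 for WT, 41 and 63 for KO#2, and 24 and 57 for KO#10. KO libraries were below WT at day 12, and at day 24 the groups overlapped through KO#10 replicate 1.

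*KIF21B*, a kinesin-4 motor that also regulates microtubule growth (chromosome 1, 200969390 to 201023714), had low values at day 12, 5 and 8 for WT, 4 and 6 for KO#2, and 4 and 6 for KO#10. At day 24 they were 8 and 7 for WT, 19 and 35 for KO#2, and 8 and 23 for KO#10. *KIF3C*, a kinesin-2 motor enriched in neurons (chromosome 2, 25926598 to 25982749), had values of 13 and 12 for WT, 9 and 11 for KO#2, and 9 and 11 for KO#10 at day 12, and 15 and 12 for WT, 23 and 33 for KO#2, and 13 and 28 for KO#10 at day 24. In both genes KO#10 replicate 1 again fell within or at the edge of the WT values.

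*KIF1B*, which carries mitochondria and synaptic vesicle precursors, had values of 33 and 29 in WT against 64, 79, 37 and 73 in KO at day 24, and *KIF21A*, the close relative of *KIF21B*, had 25 and 21 against 40, 41, 29 and 34 (KO#2 replicates 1 and 2, then KO#10 replicates 1 and 2). These were the 2 of 8 whose KO libraries all lay above both WT libraries, as did 22.2% of all genes tested. *KIF5B*, the heavy chain of kinesin-1 that most cell types express, had 41 and 44 in WT against 38, 59, 55 and 60.

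**Figure D1:**
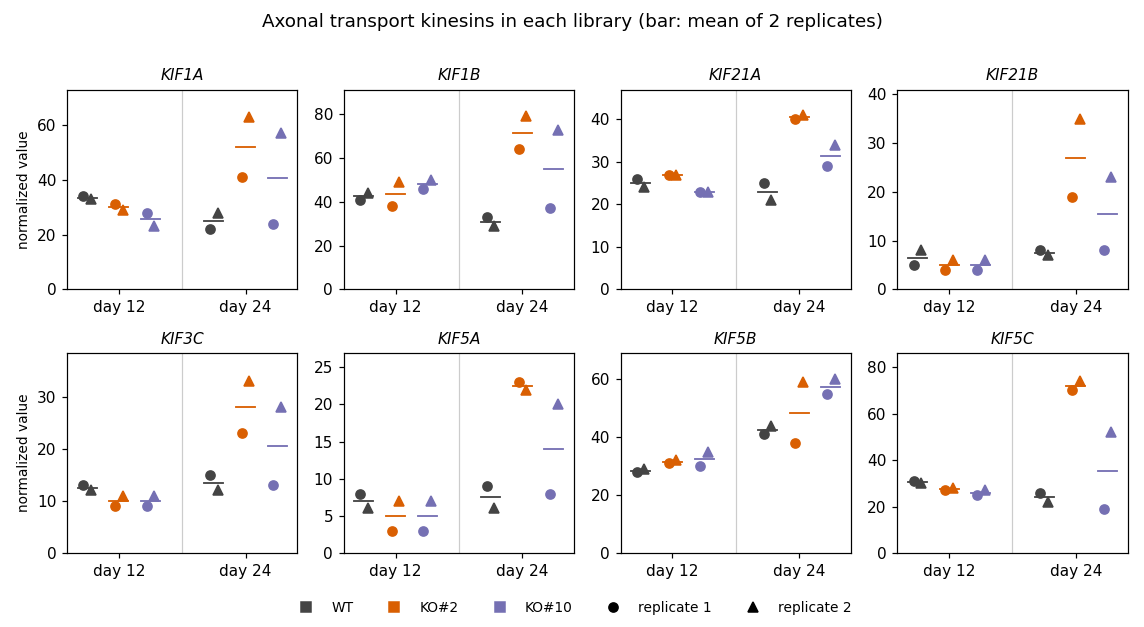
Normalized value (y axis, from 0) of each of the 8 axonal transport kinesins in each of the 12 libraries by day and line. Circles are replicate 1, triangles replicate 2 and bars the mean of both. At day 24 the circle of KO#10 lies near WT in most panels, while the other 3 KO points lie above WT, as in *KIF5C* (70, 74 and 52 against 26 and 22).

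The mean ± SD of *KIF5C* at day 24 was 24 ± 2.83 in WT (n = 2) and 53.75 ± 25.1 in KO (n = 4), a log2 fold change of 0.97 ± 0.51 (SE) with an adjusted *p* of 0.207. For *KIF5A* they were 7.5 ± 2.12 and 18.25 ± 6.95 (log2 fold change 1.10 ± 0.42, adjusted *p* = 0.103). *KIF21B* had 7.5 ± 0.707 and 21.25 ± 11.1 (log2 fold change 1.23 ± 0.49, adjusted *p* = 0.118). For *KIF1A* the means were 25 ± 4.24 and 46.25 ± 17.5 (log2 fold change 0.78 ± 0.37, adjusted *p* = 0.166). The log2 fold changes of the other 4 were 0.95 ± 0.30 for *KIF1B* (adjusted *p* = 0.0674), 0.73 ± 0.34 for *KIF3C* (adjusted *p* = 0.160), 0.62 ± 0.18 for *KIF21A* (adjusted *p* = 0.0573) and 0.29 ± 0.20 for *KIF5B* (adjusted *p* = 0.328). In each of the 4 genes given with means, the SD of KO exceeded that of WT.

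At day 24 none of the 8 axonal kinesins, and none of the 28 kinesins tested, was called by limma in either direction, where 4.22% of all 9289 genes tested were called higher and 3.79% lower. All 8 axonal kinesins had a positive log2 fold change, with a median of 0.87, where 50.4% of all genes did and the median of all genes was 0.01. At an unadjusted *p* under 0.05, 4 of the 8 were higher (20.2% of all genes), and over all kinesins 7 were higher and 1 lower. These counts and the median include *KIF5A* and *KIF21B*, which reached the minimum value of 10 only in KO libraries. Both could thus enter a fit of day 24 only as higher in KO, also when KO#10 replicate 1 was left out. An exact permutation test of 1 gene with 2 libraries against 4 cannot go below *p* = 0.0667.

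Without KO#10 replicate 1, 5 axonal kinesins were called higher in KO at day 24, where 7.86% of all genes were called higher and 6.8% lower. KO then holds both libraries of KO#2 and only replicate 2 of KO#10. For a gene that is low in the library left out, this narrows the spread of KO and raises its mean. The library was chosen after its values were seen, so that these calls are a description and not separate support. The calls were as follows. The 5 called were *KIF1A* (log2 fold change 1.06 ± 0.22, adjusted *p* = 0.0195), *KIF1B* (1.19 ± 0.14, adjusted *p* = 0.00549), *KIF5A* (1.44 ± 0.19, adjusted *p* = 0.00687), *KIF5C* (1.40 ± 0.19, adjusted *p* = 0.00721) and *KIF21B* (1.61 ± 0.27, adjusted *p* = 0.0108). *KIF3C* (0.99 ± 0.19, adjusted *p* = 0.0160) and *KIF21A* (0.71 ± 0.15, adjusted *p* = 0.0191) passed the adjusted *p* but not the fold. Of the other kinesins none was called without that library, while *KLC1* (0.87 ± 0.16, adjusted *p* = 0.0139), *KIF3A* (0.64 ± 0.13, adjusted *p* = 0.0200), *KLC2* (0.59 ± 0.13, adjusted *p* = 0.0226) and *KIF20A* (−0.56 ± 0.15, adjusted *p* = 0.0388) passed the adjusted *p* but not the fold.

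Of 10 neuronal markers tested, 10 had a positive log2 fold change at day 24 (median 1.93, with 50.4% of all genes positive). In KO 4 were called higher (4.22% of all genes), namely *ELAVL4*, *GAP43*, *MAP2* and *NCAM1*. Without KO#10 replicate 1, 9 of the 10 were called higher (7.86% of all genes). *ELAVL3* and *ELAVL4* reached the minimum value for a test at that day only in KO libraries. *DCX*, a microtubule-associated protein of young neurons, had values of 14 and 4 for WT, 70 and 80 for KO#2, and 17 and 56 for KO#10 at day 24. KO#10 replicate 1 had a lower value than each of the other 3 KO libraries in 9 of the 11 neuronal markers in the table, a share not counted over all genes. The exceptions were *GAP43*, with 56 in it against 52, 77 and 53 in the other KO libraries and 19 and 11 in WT, and *NEFL*, with 25 against 25, 31 and 17 and 12 and 15 in WT.

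**Figure D2:**
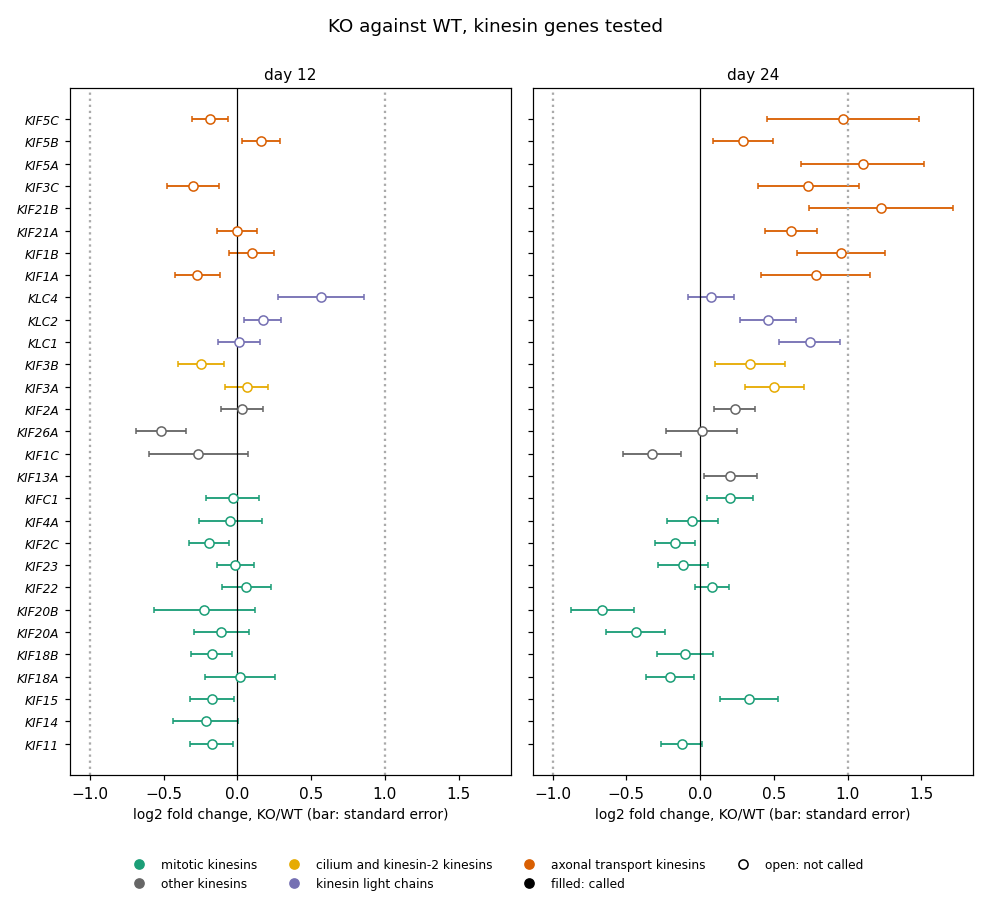
Log2 fold change of KO over WT (x axis, on the log2(value + 1) scale) for each kinesin tested at day 12 and at day 24, with bars of 1 standard error and dotted lines at a log2 fold change of 1 in size. No gene was called at either day, and at day 24 the 8 axonal kinesins lie between 0.29 and 1.23 while the mitotic kinesins lie between −0.66 and 0.33.

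At day 12, 26 kinesins were tested and limma called none in either direction, where 0.0225% of all 8885 genes were called higher and 0.0675% lower. At an unadjusted *p* under 0.05 none was higher (5.95% of all genes) and 1 was lower (5.08%), *KIF26A*, whose values are given with the other kinesins. Of 6 axonal kinesins tested, 2 had a positive (49.6% of all genes) and 4 a negative log2 fold change (50.4%), and *KIF5A* and *KIF21B* did not reach the minimum value for a test at that day.

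Between day 12 and day 24, 5 of 8 axonal kinesins rose in KO at an adjusted *p* under 0.05 (18.8% of all genes). All 8 had a positive log2 fold change there (50.5% of all genes), with a median of 0.75. Those called were *KIF21B* (1.75 ± 0.34, adjusted *p* = 0.00219), *KIF5A* (1.67 ± 0.34, adjusted *p* = 0.00290) and *KIF3C* (1.13 ± 0.23, adjusted *p* = 0.00256), where 5.88% of all 9952 genes were called higher and 5.59% lower. *KIF21B* and *KIF5A* reached the minimum value of 10 only in KO libraries of day 24. They entered this fit, also used for the interaction, only through the group where they were high. Their calls are thus a description and not separate support. *KIF5B* (0.69 ± 0.14, adjusted *p* = 0.00270) and *KIF21A* (0.50 ± 0.13, adjusted *p* = 0.0105) passed the adjusted *p* but not the fold. The log2 fold changes of *KIF5C* (0.81 ± 0.32, adjusted *p* = 0.0639), *KIF1A* (0.64 ± 0.24, adjusted *p* = 0.0556) and *KIF1B* (0.41 ± 0.20, adjusted *p* = 0.123) did not pass.

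In WT the axonal kinesins did not move one way. Their log2 fold changes from day 12 to day 24 were positive in 4 and negative in 4, with a median of −0.02, and limma called none. At an unadjusted *p* under 0.05, 1 was higher (20.7% of all genes), *KIF5B* (0.56 ± 0.20, adjusted *p* = 0.0507), whose values went from 28 and 29 to 41 and 44. For *KIF5C* (−0.34 ± 0.46), *KIF1A* (−0.42 ± 0.34) and *KIF1B* (−0.44 ± 0.28) the change in WT was negative. In these 3 of 8 both WT libraries of day 24 lay below both of day 12 (31.6% of all genes), while in *KIF5B* both lay above. The standard errors use 1 spread shared by WT and KO at both days, and are not the spread of the WT libraries alone. The change in WT of *KIF5A* was 0.08 ± 0.49, that of *KIF21B* 0.21 ± 0.48, that of *KIF3C* 0.10 ± 0.32 and that of *KIF21A* −0.12 ± 0.18.

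The difference between these changes was tested as the interaction of genotype and day. Its log2 value was positive in all 8 axonal kinesins (51.6% of all genes), with a median of 1.04, and was 1.59 ± 0.59 for *KIF5A* (adjusted *p* = 0.155), 1.54 ± 0.59 for *KIF21B* (adjusted *p* = 0.163), 1.15 ± 0.56 for *KIF5C* (adjusted *p* = 0.257), 1.05 ± 0.42 for *KIF1A* (adjusted *p* = 0.175), 1.03 ± 0.39 for *KIF3C* (adjusted *p* = 0.160), 0.86 ± 0.35 for *KIF1B* (adjusted *p* = 0.182), 0.62 ± 0.23 for *KIF21A* (adjusted *p* = 0.147) and 0.13 ± 0.24 for *KIF5B* (adjusted *p* = 0.798). None of the 29 kinesins tested was called by limma for the interaction, where 0.452% of all genes were called positive and 0.854% negative, and 7 passed an unadjusted *p* under 0.05, all positive (11.3% of all genes passed as positive and 10.2% as negative). Without KO#10 replicate 1 of day 24, 6 were called, namely *KIF1A*, *KIF1B*, *KIF3C*, *KIF5A*, *KIF5C* and *KIF21B*, where 4.23% of all genes were called positive and 5.02% negative. *KIF5C* then had an interaction of 1.58 ± 0.22 (adjusted *p* = 0.00206).

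**Figure D3:**
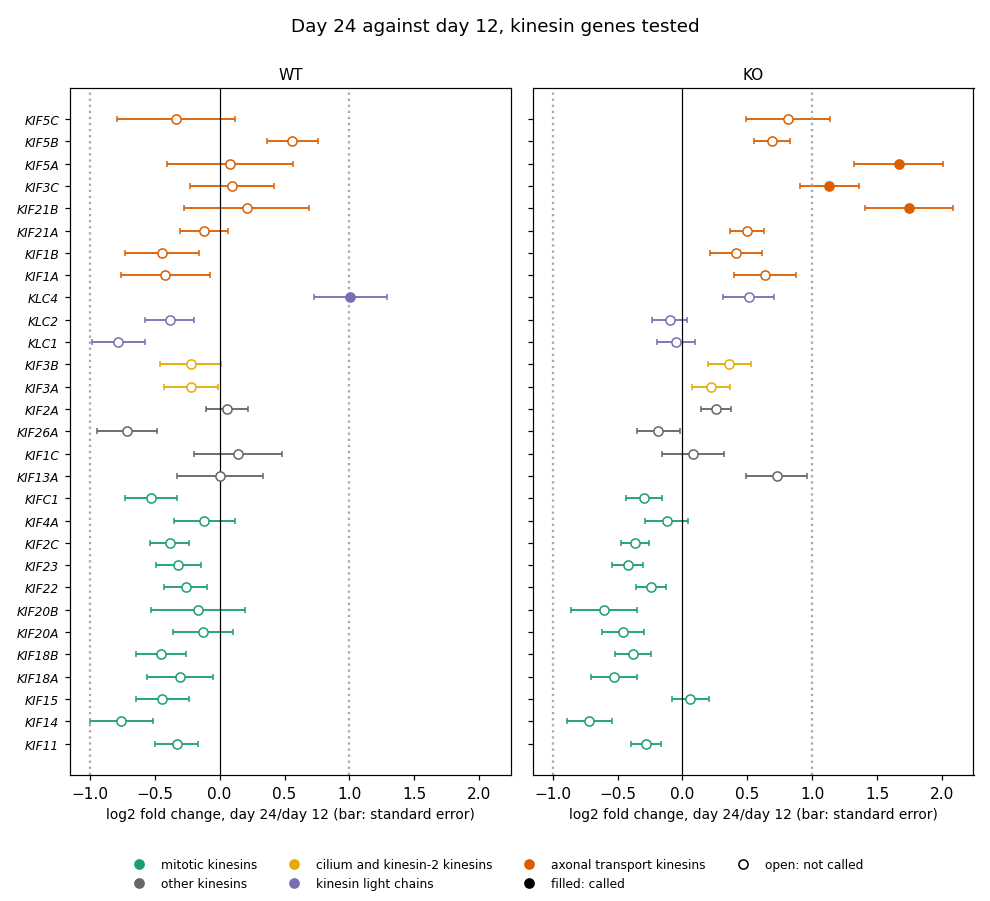
Log2 fold change of day 24 over day 12 (x axis, on the log2(value + 1) scale) for each kinesin tested in WT and in KO, with bars of 1 standard error. Filled points were called, which in WT was *KLC4* (1.01) and in KO *KIF5A* (1.67), *KIF3C* (1.13) and *KIF21B* (1.75), and nearly all mitotic kinesins lie left of 0 in both panels.

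The mitotic kinesins showed a different pattern. Nearly all had lower values at day 24 than at day 12 in both genotypes, by less than 2-fold, with 1 of 12 past an adjusted *p* under 0.05 in WT and 6 of 12 in KO. Between KO and WT none passed at either day. Their promoters share a sequence feature that the choice of members did not use. The cell cycle genes homology region (CHR) is an element in promoters of genes of the G2 and M phases, and its letters were searched in RefSeq promoter windows (GRCh38.p14) from 250 bases before to 50 bases after the start, 300 bases in all. Windows were found for 26 of the 32 members. TTTGAA or TTTAAA on either strand stood in the window of 11 of 12 mitotic kinesins, with *KIF22* as the exception, of 1 of 6 axonal kinesins (*KIF5B*) and of none of the 8 other members with a window. Of all 27305 genes with a window 27.9% held it, and of those with a value 21.6%. CCAAT, the letters of the box bound by NF-Y, stood in the window of 10 of the 12 mitotic kinesins, of 3 of 6 axonal kinesins, of 2 of 3 kinesins of the cilium or kinesin-2 and of none of the other 5 members. Of all genes with a window 39.7% held it, and of those with a value 44.9%.

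Sites of the mitotic kinesins described by their values are shown for comparison, each of 30 bases and read so that the hexamer nearest the start, in capitals, runs 5′ to 3′.
*KIF11* (chr10:92593090-92593119, minus strand): tcggcgcctcaaTTTGAAaaagagacagag
*KIF15* (chr3:44761747-44761776, minus strand): gatggccgcaaaTTTGAAtttggcgcttgg
*KIF20A* (chr5:138179059-138179088, plus strand): cgcagcgcgtaaTTTAAAatattgtatctg
*KIF20B* (chr10:89701602-89701631, plus strand): tggccgccattgTTTGAAtttgaaaacggt
*KIF23* (chr15:69414282-69414311, plus strand): ctgattggcccgTTTGAAatgcgccaggcg
In *KIF11*, *KIF15*, *KIF20A* and *KIF23* the hexamer began 28, 35, 41 and 55 bases before the start, and in *KIF20B* it began at base 25 of the transcript, where a second TTTGAA, in lower case, follows from base 31. A match is a description of letters and not a measured binding site.

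The AP-1 site was searched in a loose form, TGANTCA on either strand, with any base in the middle (N). These letters stood in the window of 1 of the 26 members, the axonal kinesin *KIF21A*, and in that of 9.37% of all genes with a window. The match in *KIF21A* has A in the middle. No window of a member held TGACTCA or TGAGTCA, the consensus letters of the site. The match is shown because c-JUN is the edited factor, with the matching letters in capitals.
*KIF21A* (chr12:39443154-39443183, minus strand): gcccgcgagccgTGAATCAcctcctcctct
The match began 51 bases before the start. The absence of these letters in the other windows says nothing about sites outside them.

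*KIF11*, the tetrameric motor that pushes spindle poles apart (chromosome 10, 92574105 to 92655395), had values of 29 and 32 for WT, 24 and 28 for KO#2, and 25 and 31 for KO#10 at day 12. At day 24 it had 24 and 24 for WT, 19 and 24 for KO#2, and 23 and 22 for KO#10. No KO library of day 24 exceeded WT, and the log2 fold change was −0.13 ± 0.14 (adjusted *p* = 0.527).

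*KIF23*, the motor of the centralspindlin complex at the midzone of the dividing cell (chromosome 15, 69414246 to 69448427), had values of 30 and 29 for WT, 30 and 28 for KO#2, and 31 and 28 for KO#10 at day 12. At day 24 its values were 25 and 22 for WT, 17 and 23 for KO#2, and 23 and 24 for KO#10. The groups overlapped at both days, with a log2 fold change of −0.12 ± 0.17 at day 24 (adjusted *p* = 0.641).

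*KIF20B*, which acts late in cytokinesis (chromosome 10, 89701590 to 89774939), had values of 38 and 31 for WT, 30 and 29 for KO#2, and 49 and 17 for KO#10 at day 12. At day 24 it had 30 and 31 for WT, 15 and 24 for KO#2, and 22 and 16 for KO#10. All 4 KO libraries of day 24 lay below both WT libraries, and the log2 fold change of −0.66 ± 0.21 had an adjusted *p* of 0.0708.

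*KIF20A*, which brings the chromosomal passenger complex to the midzone (chromosome 5, 138178719 to 138187723), had values of 40 and 53 for WT, 36 and 46 for KO#2, and 39 and 51 for KO#10 at day 12. At day 24 they were 41 and 43 for WT, 26 and 33 for KO#2, and 40 and 26 for KO#10. KO libraries were again all below WT at day 24, by 1 unit in KO#10 replicate 1, and the log2 fold change was −0.44 ± 0.20 (adjusted *p* = 0.153). The interval of *KIF20A* holds parts of *BRD8* and *CDC23* on the opposite strand, and whether strand was used in counting is not stated.

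*KIF15*, which backs up *KIF11* in holding the spindle bipolar, had values of 18 and 15 for WT, 15 and 13 for KO#2, and 15 and 15 for KO#10 at day 12, and 14 and 10, 16 and 13, and 18 and 14 at day 24. The KO and WT values of day 24 overlapped (log2 fold change 0.33 ± 0.20, adjusted *p* = 0.255).

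**Figure D4:**
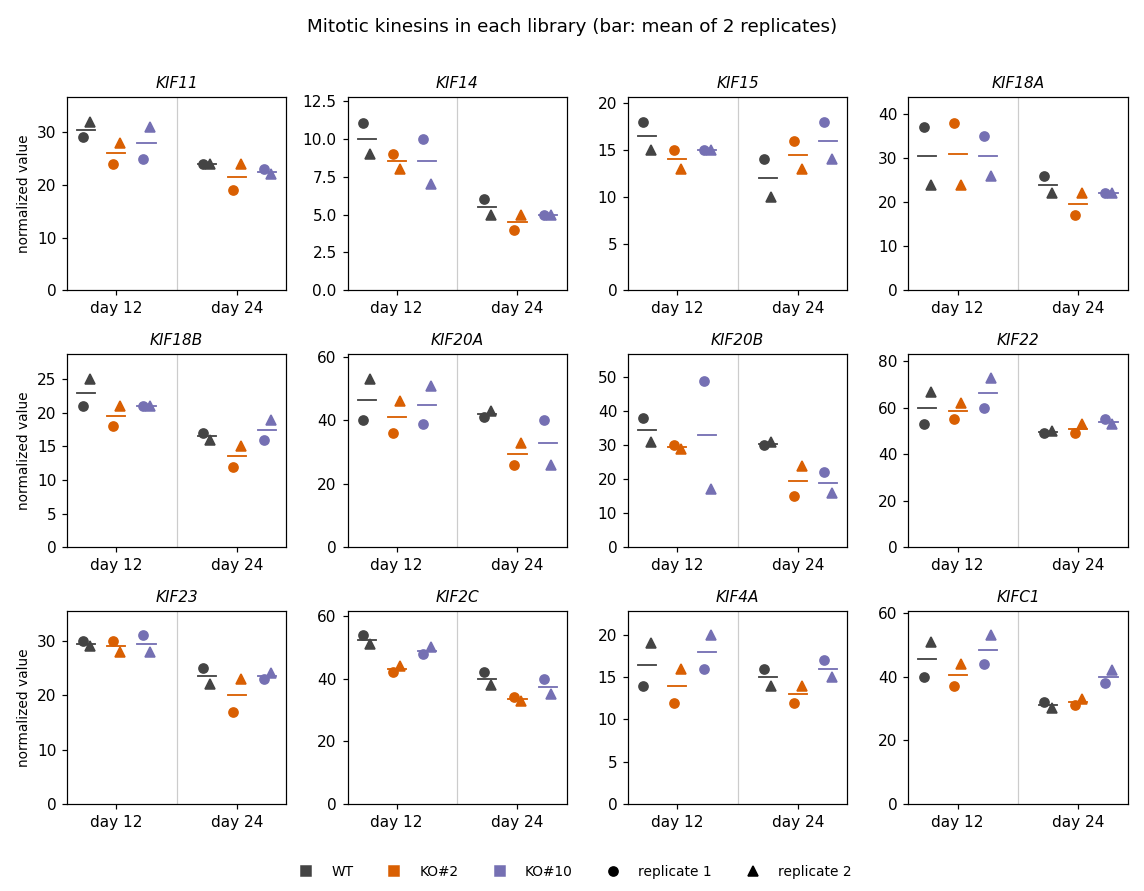
Normalized value (y axis, from 0) of each of the 12 mitotic kinesins in each of the 12 libraries by day and line. Circles are replicate 1, triangles replicate 2 and bars the mean of both. In most panels the points of day 24 lie below those of day 12, as in *KIF11* (19 to 24 against 24 to 32), and of the 12 genes KO lies wholly below WT at day 24 in *KIF20A* and *KIF20B*.

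Of the 11 mitotic kinesins tested at day 24, 8 had a negative and 3 a positive log2 fold change of KO over WT (49.5% of all genes were negative), with a median of −0.12. At an unadjusted *p* under 0.05, 1 was lower (17.6% of all genes), and 2 had all their KO values below both WT values (21.8% of all genes). *KIF14* did not reach the minimum value for a test at that day. At day 12, 10 of 12 had a negative log2 fold change, with a median of −0.14. The summed value of 12 proliferation markers was 1144 to 1214 in WT and 898 to 1066 in KO at day 12, and 888 to 941 in WT and 834 to 906 in KO at day 24. The sums of day 24 hide differences in both directions. All KO values lay above both WT values in 3 of the 12 markers (22.2% of all genes) and below them in 4 (21.8%). *CDK1* had 212 and 212 in WT and 93 to 124 in KO, while *MCM2* had 68 and 58 in WT and 80 to 116 in KO. None of the 12 was called at that day (4.22% of all genes were called higher and 3.79% lower).

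From day 12 to day 24 the log2 fold change was negative in 12 of 12 mitotic kinesins in WT (48.6% of all genes), with a median of −0.33, and in 11 of 12 in KO (49.3% of all genes), with a median of −0.37. In WT, 1 passed an adjusted *p* under 0.05 (15.8% of all genes), *KIF14*, which acts in cytokinesis (−0.76 ± 0.24, adjusted *p* = 0.0349). Its values were 11 and 9 at day 12 and 6 and 5 at day 24. *KIF14* reached the minimum value of 10 only in libraries of day 12. It thus entered this fit, for WT and for KO, only through the day where it was high. In KO, 6 passed (19% of all genes), namely *KIF14* (−0.72 ± 0.17, adjusted *p* = 0.00665), the chromosome alignment motor *KIF18A* (−0.53 ± 0.18, adjusted *p* = 0.0342), *KIF20A* (−0.46 ± 0.16, adjusted *p* = 0.0435), *KIF23* (−0.42 ± 0.12, adjusted *p* = 0.0168), *KIF18B* (−0.38 ± 0.14, adjusted *p* = 0.0460) and the microtubule depolymerase *KIF2C* (−0.37 ± 0.10, adjusted *p* = 0.0166). None of these changes reached 2-fold, so that none was called, where 7.92% of all genes were called lower in WT. The corresponding changes in *KIF11* were −0.33 ± 0.16 in WT (adjusted *p* = 0.143) and −0.28 ± 0.12 in KO (adjusted *p* = 0.0730).

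In 8 of 12 mitotic kinesins both WT libraries of day 24 lay below both of day 12 (31.6% of all genes), and in 4 all KO libraries of day 24 lay below all of day 12 (15.6% of all genes). The interaction of genotype and day was positive in 7 and negative in 5 mitotic kinesins, with a median of 0.02, and at an unadjusted *p* under 0.05 there was none in either direction. Passing in KO and not in WT therefore does not show a difference between genotypes, since KO had 4 libraries a day and WT 2.

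The 2 classes were set against each other in each library by the mean of log2(value + 1) over their members. The axonal mean was below the mitotic mean by 0.57 to 0.59 in WT at day 12 and by 0.26 to 0.29 in WT at day 24. In KO the difference, axonal minus mitotic, was −0.87 to −0.44 at day 12 and −0.21 to 1.10 at day 24, with −0.21 in KO#10 replicate 1. Averaged over libraries it was higher by 0.95 in KO than in WT at day 24. The means of day 12 differed by −0.06 (KO minus WT), where the SD at that day was 0.014 in WT (n = 2) and 0.18 in KO (n = 4). The axonal minus mitotic difference rose from day 12 to day 24 by 0.30 in WT and by 1.31 in KO. Members of a class are not replicates and values of different genes are on no common scale per length, so that these means are a description with no test, and only their differences between libraries are read.

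**Figure D5:**
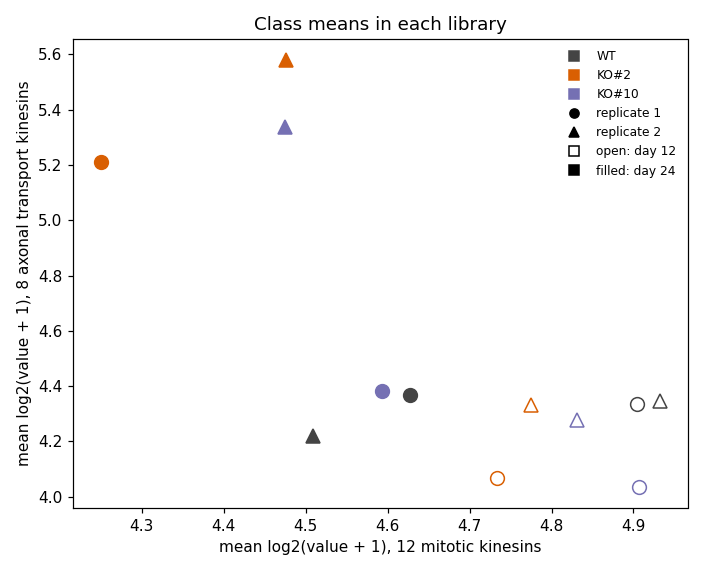
Mean log2(value + 1) of the 8 axonal transport kinesins (y axis) against that of the 12 mitotic kinesins (x axis) in each library. Colours are lines, circles and triangles are replicates 1 and 2, and open and filled symbols are day 12 and day 24. At day 24, 3 KO libraries stand above an axonal mean of 5.2, while KO#10 replicate 1 (4.38) stands with WT (4.22 and 4.37).

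The kinesin light chains join the heavy chains of kinesin-1 to their cargo. *KLC1*, the light chain most abundant in neurons, had values of 75 and 62 for WT, 73 and 64 for KO#2, and 68 and 70 for KO#10 at day 12. At day 24 it had 44 and 35 for WT, 77 and 77 for KO#2, and 51 and 64 for KO#10. All KO libraries of day 24 lay above WT, with means of 67.25 ± 12.4 against 39.5 ± 6.36 and a log2 fold change of 0.74 ± 0.20 (adjusted *p* = 0.0520). The change from day 12 to day 24 was −0.78 ± 0.20 in WT (adjusted *p* = 0.0146) and −0.05 ± 0.14 in KO (adjusted *p* = 0.810), and the interaction was 0.73 ± 0.25 (adjusted *p* = 0.127). *KLC1* thus fell in WT by less than 2-fold, and no change passed the test in KO. Its interval overlaps 10 other annotated genes, *BAG5* and *XRCC3* among them, and likewise that of *KLC4* overlaps *CUL7* and *MRPL2*, that of *KIF15* overlaps *TMEM42* and that of *KIF5C* an antisense gene, so that reads could be shared.

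*KLC2* had values of 23 and 22 for WT, 27 and 27 for KO#2, and 24 and 24 for KO#10 at day 12, and 18 and 16, 25 and 28, and 18 and 25 at day 24 (log2 fold change 0.46 ± 0.19, adjusted *p* = 0.126). KO#10 replicate 1 was again level with WT. *KLC4* (chromosome 6, 43040777 to 43075095) had values of 7 and 9 for WT, 8 and 15 for KO#2, and 11 and 17 for KO#10 at day 12, and 18 and 16, 20 and 15, and 18 and 19 at day 24. It was the 1 kinesin called between days in WT, higher at day 24 by a log2 fold change of 1.01 ± 0.28 (adjusted *p* = 0.0202), where 7.21% of all genes were called higher, and it was not called when a WT library of day 24 or replicate 1 of WT at day 12 was left out. In KO its change was 0.51 ± 0.20 (adjusted *p* = 0.0617), and KO and WT overlapped at day 24 (log2 fold change 0.07 ± 0.16, adjusted *p* = 0.751).

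*KIF3A* and *KIF3B* form the heterotrimeric kinesin-2 motor that carries cargo into the cilium. *KIF3A* had values of 18 and 15 for WT, 16 and 19 for KO#2, and 16 and 18 for KO#10 at day 12, and 15 and 13, 21 and 24, and 15 and 22 at day 24 (log2 fold change 0.50 ± 0.20, adjusted *p* = 0.118). *KIF3B* had values of 13 and 14 for WT, 12 and 12 for KO#2, and 10 and 11 for KO#10 at day 12, and 13 and 10, 18 and 18, and 11 and 13 at day 24 (log2 fold change 0.34 ± 0.24, adjusted *p* = 0.332). In both genes the KO#2 libraries of day 24 were above WT and the KO#10 libraries overlapped it. *KIF24*, which acts at the centriole, ranged from 4 to 9 and was not tested.

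Of the 6 other kinesins, 4 were tested at day 24 and none passed an unadjusted *p* under 0.05. *KIF2A*, a microtubule depolymerase, had values of 54 and 52 for WT, 63 and 69 for KO#2, and 54 and 65 for KO#10 at that day (log2 fold change 0.23 ± 0.14, adjusted *p* = 0.250), after 48 and 54, 46 and 53, and 52 and 58 at day 12. *KIF13A*, a kinesin-3 motor of endosomes, had 8 and 10 for WT, 10 and 10 for KO#2, and 12 and 10 for KO#10 at day 24 (log2 fold change 0.21 ± 0.18, adjusted *p* = 0.433), after 10 and 8, 3 and 7, and 7 and 8 at day 12. From day 12 to day 24 it rose in KO by 0.73 ± 0.24 (adjusted *p* = 0.0288), short of the fold, and in WT both days had the same pair of values. The interaction was 0.73 ± 0.41 (adjusted *p* = 0.325). *KIF1C*, another kinesin-3 motor, had 14 and 12 for WT, 8 and 10 for KO#2, and 11 and 12 for KO#10 at day 24 (log2 fold change −0.32 ± 0.20, adjusted *p* = 0.266), after 9 and 15, 6 and 15, and 9 and 10 at day 12. *KIF26A*, a kinesin without motor activity, was lower at day 24 than at day 12 in WT (−0.72 ± 0.23, adjusted *p* = 0.0363), with values of 14 and 17 and then 9 and 9. With any 1 of the WT libraries left out, that change no longer passed. In KO the change was −0.19 ± 0.16 (adjusted *p* = 0.390) and the interaction 0.53 ± 0.28 (adjusted *p* = 0.304). At day 12 its KO values lay below both WT values (log2 fold change −0.52 ± 0.17, adjusted *p* = 0.308). *KIFC2* and *KIFC3* had values of at most 6 and were not tested.

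Each clone was also set against WT at day 24 on its own, and these comparisons share the WT libraries. They come from 1 fit of the 3 lines, so that the gap between the KO#10 libraries also enters the spread used for KO#2. For *KIF5C* the log2 fold change of KO#2 over WT was 1.55 ± 0.44 (adjusted *p* = 0.0656). The lack of a call in KO#2 therefore does not rest on the KO#2 and WT libraries alone. Limma called no kinesin in KO#2 or in KO#10, where 4.75% and 0.14% of all genes were called higher and 4.26% and 0.14% lower. At an unadjusted *p* under 0.05, 10 of 28 kinesins were higher in KO#2 (19.4% of all genes) and 1 was lower (18.5%). In KO#10 the counts were 3 higher (13.1%) and 1 lower (11.1%). The 8 axonal kinesins had a median log2 fold change of 1.09 in KO#2 and 0.52 in KO#10. In 7 of 8 both KO#2 libraries lay above both WT libraries (32.2% of all genes), and in 3 of 8 both KO#10 libraries did (27.4% of all genes). The direct test of KO#2 against KO#10 called no gene of any kind by limma, with 2 kinesins higher in KO#2 (2.41% of all genes) and none lower (2.75%) at an unadjusted *p* under 0.05. When either KO#10 library of day 24 was left out, *KIF1B*, *KIF5A* and *KIF5C* were called higher in KO#2 than in WT, where 4.47% of all genes were called higher without replicate 1 and 4.37% without replicate 2.

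Genes whose proteins work with the kinesins were examined as lists. Of 18 adaptors of axonal transport tested at day 24, 14 had a positive log2 fold change of KO over WT (50.4% of all genes), with a median of 0.50, and 2 were called higher (4.22% of all genes). Without KO#10 replicate 1, 4 were (7.86% of all genes). *KIDINS220*, which links neurotrophin receptors to kinesin-1, had values of 21 and 15 for WT, 67 and 59 for KO#2, and 35 and 48 for KO#10. *MAPK8IP3*, an adaptor of kinesin-1 and dynein, had 15 and 11 for WT, 33 and 28 for KO#2, and 23 and 26 for KO#10. For both adaptors KO#10 replicate 1 lay above WT. It did so too for the heavy chain *KIF5B* (55 against 41 and 44), for *KIF1B*, *KIF21A* and *KLC1*, but not for *KIF5A* and *KIF5C*. From day 12 to day 24, *KIFAP3*, *MAPK8IP2* and *SYBU* were called higher in KO (5.88% of all genes), and *KIFAP3*, the non-motor subunit of kinesin-2, was called higher (7.21%) and *MAPK8IP3* lower (7.92%) in WT. *MAPK8IP2* and *SYBU* reached the minimum value for a test only in KO libraries of day 24, where they were high.

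Of 16 partners of the mitotic kinesins, all in the table, none was called by limma at day 24, 11 had a negative log2 fold change (median −0.06, with 49.5% of all genes negative), and at an unadjusted *p* under 0.05, 1 was higher (20.2% of all genes) and 4 lower (17.6%). Without KO#10 replicate 1, *HMMR* was called lower (6.8% of all genes). *CIT*, the citron kinase that works with *KIF14* in cytokinesis, was called lower at day 24 than at day 12 in both genotypes (7.92% of all genes in WT and 5.59% in KO), with values of 48 and 42 in WT at day 12 and 17 and 16 at day 24, and 40 to 50 in KO at day 12 and 14 to 19 at day 24. *ECT2*, the partner of centralspindlin, and *NUMA1*, which anchors spindle poles, were called lower in WT, by −1.30 ± 0.25 (adjusted *p* = 0.00335) and −1.04 ± 0.17 (adjusted *p* = 0.00162) on the log2 scale. In KO *ECT2* fell by 0.97 ± 0.17 (adjusted *p* = 0.00127), short of the fold, and *NUMA1* had −0.24 ± 0.12 (adjusted *p* = 0.131). Neither interaction passed, with 0.32 ± 0.30 for *ECT2* (adjusted *p* = 0.579) and 0.80 ± 0.21 for *NUMA1* (adjusted *p* = 0.0697).

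Dynein and dynactin, which move cargo the opposite way along the axon, had 19 genes tested. At day 24 limma called none, 14 had a positive log2 fold change (median 0.37, with 50.4% of all genes positive), and at an unadjusted *p* under 0.05, 8 were higher (20.2% of all genes) and 1 lower (17.6%) in KO. None was called without KO#10 replicate 1 either. From day 12 to day 24, *DYNC1I2* and *DYNLRB1* were called higher in WT (7.21% of all genes) and *DYNC1I2* in KO (5.88%).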

How the data were processed

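Total RNA of COs, depleted of ribosomal RNA, was sequenced with a strand-specific protocol in 12 libraries. The authors deposited 1 whole-number score per gene and library, a normalized value that was rounded, since all libraries share nearly the same 269 to 271 distinct values. The submitters' processing notes name bcl2fastq, Bowtie2, RSEM and mm10, a mouse build, whereas all 10976 identifiers are in the human annotation GENCODE 29 (GRCh38), where 10975 intervals overlap and 3940 are identical. The normalization and any use of strand in counting are not given in the sources used here. Near-identical copies and overlapping genes may share reads. No column of other samples was present.

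Groups came from the sample labels. Members, gene lists, classes and tests were chosen with earlier results of these data known. Values were transformed to log2(value + 1) and fitted with limma 3.58.1 in R 4.3.3 (lmFit, then eBayes with trend = TRUE) on all genes that reached 10 in 2 or more libraries of the fit. *P*-values were two-sided and adjusted by Benjamini-Hochberg over all genes tested. The 4 KO and 2 WT libraries of a day were compared in a fit of that day, day changes and the interaction over all 12 libraries in 4 groups, and the clones in a fit of 3 groups at day 24. The code was tested on simulated data. Values were printed for the genes named in the rule for members, for members called in any comparison and for the 3 of each class with the largest log2 fold change in size at day 24. The other members named were chosen after their values were seen.

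Same-numbered libraries deviated together at day 12 (*r* = 0.376 to 0.556 between lines over all genes tested). The alternatives were the pseudocount, filters, the trend, centring, the samples in the fit, the replicate block, the unadjusted *p* and leaving out each library. Genes outside the table, among them *KIF7*, *KIF17* and *KLC3*, were not analysed here.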

Additional observations from a re-analysis of the deposited data

Results flagged for a closer look

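Among the 4 KO libraries of a day, 3 values lay far from the nearest of the others by Dixon's test at the 95% level, which chance passes in about 1 in 20 groups. *KIF23* had 17 in KO#2 replicate 1 at day 24, against 23, 23 and 24 in the other KO libraries. *KIF13A* had 12 in KO#10 replicate 1 at day 24, against 10 in each of the other 3. *KIF15* had 13 in KO#2 replicate 2 at day 12, against 15 in each of the other 3. The last 2 gaps are 2 units of a rounded value. In both, the other 3 rounded values are tied, so that the rate of 1 in 20 does not hold for them. The test was run on many genes at both days, so that chance alone gives some passes.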

How the results depend on the processing

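The number of kinesins called higher in KO than in WT at day 24 (0) was 1 with all 12 libraries in 1 fit (*KIF21B*, where 5.92% of all genes were called higher), 2 with the unadjusted *p* (*KIF21B* and *KIF5A*) and 0 to 5 with 1 library left out, the 5 without KO#10 replicate 1. Between days in WT it (1, *KLC4*) was 2 with no filter on low values (*KLC4* and *KIFC3*), 0 with a filter of at least 20, which leaves *KLC4* untested, and 0 to 1 with 1 library left out. Between days in KO it (3) was 2 to 4 with 1 library left out, *KIF3C* being lost without KO#2 replicate 2 of day 24 and *KIF5C* gained without KO#10 replicate 1. For the interaction it (0) was 4 with the unadjusted *p* and 0 to 6 with 1 library left out, and for KO#2 against WT (0) it was 0 to 3. With the replicate number as a block the counts were 0 for KO against WT at either day, 1 between days in WT, 3 between days in KO and 0 for the interaction, so that the block changed no kinesin call. Same-numbered libraries did not deviate together between all lines at day 24 (*r* = 0.218, −0.0944 and 0.328). The other 218 counts under an alternative were within 1.5 times the main count. Most of them were 0 against a main count of 0, where that margin has no meaning.

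With 1 library left out the log2 change took both signs for *KLC4* in KO against WT at day 24 (−0.0074 to 0.1531), for the change with day in WT of *KIF20A* (−0.329 to 0.0683), *KIF13A* (−0.1448 to 0.1448), *KIF21A* (−0.2399 to 0.0011), *KIF21B* (−0.085 to 0.5), *KIF3C* (−0.0535 to 0.2461) and *KIF5A* (−0.1813 to 0.3333), and for that in KO of *KLC1* (−0.1198 to 0.0752). The other log2 changes refitted for the kinesins named kept their sign under all alternatives run. Their size moved by more than 1.5 times at day 24 with 1 library left out for *KIF15* (0.1055 to 0.553), *KIF3B* (0.1647 to 0.5126), *KIF13A* (0.0603 to 0.3498) and *KIF23* (−0.2045 to −0.0074), among others. Of the day changes past the adjusted *p* in WT, *KIF14*, *KLC1* and *KIF26A* no longer passed when some single libraries were left out (highest adjusted *p* 0.180, 0.117 and 0.164), nor in KO did *KIF18A*, *KIF18B*, *KIF20A* and *KIF13A* (0.0981, 0.120, 0.120 and 0.0609). The axonal minus mitotic difference of KO and WT at day 24 ranged from 0.81 to 1.25 with 1 library left out, and that at day 12 took both signs (−0.1198 to 0.0221). Depth is unknown, and at values under about 10 a step of 1 unit from rounding is a large part of the value.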

Other observations

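At day 12 the values of some kinesins in the 3 libraries numbered replicate 1 did not overlap those in the 3 numbered replicate 2, as in 25.8% of all 8885 genes tested at that day. Among the 26 kinesins tested these were 6 (23.1%), namely *KIF18A*, *KIF20A*, *KIF22*, *KIF23*, *KIF1C* and *KIF2A*, a share near that of all genes. *KIF18A* had values of 37, 38 and 35 in replicate 1 of WT, KO#2 and KO#10 and 24, 24 and 26 in replicate 2, while *KIF22* had 53, 55 and 60 and then 67, 62 and 73, and *KIF20A* had 40, 36 and 39 and then 53, 46 and 51. *CENPE*, a kinesin of the kinetochore whose symbol the rule does not match, had 32, 31 and 30 and then 21, 19 and 18. *KIF18A* and *CENPE* were thus higher in replicate 1 of all 3 lines and *KIF20A* and *KIF22* in replicate 2, and in each of the 4 genes the values of the 2 replicates did not overlap. These genes were chosen after their values were seen, and the difference was not tested.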
